A study of Mus musculus with 14 samples.

Results

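The transcripts of 10 genes of the nuclear lamina and envelope were followed through senescence caused by loss of TRF2, the telomere-binding protein encoded by *Terf2*, in immortalized mouse fibroblasts and in mouse liver. The genes were the lamins *Lmna*, *Lmnb1* and *Lmnb2*, the inner membrane proteins *Lbr*, *Emd* and *Tmpo*, the SUN proteins *Sun1* and *Sun2*, and the giant nesprins *Syne1* and *Syne2*. They were chosen by gene symbol for this function, with earlier results of these data known. All 10 were found among the 54532 genes of the count tables and passed the filter on low counts in both tissues. Immortalized murine embryonic fibroblasts (iMEFs) of genotype Trf2F/F;Rosa-CreER received vehicle (control iMEFs, 3 libraries) or 4-hydroxytamoxifen (4HT), which activates CreER, for 7 days (senescent iMEFs, 3 libraries). The iMEFs carried SV40 large T antigen, and with no library of 4HT-treated cells that kept *Terf2*, an effect of the drug or the active recombinase cannot be told apart from that of TRF2 loss. Livers came from mice of genotype Rosa-mTmG (control livers, 4 libraries) or Trf2F/F;Rosa-mTmG (senescent livers, 4 libraries). Both groups of mice had received AAV8-Tbg-Cre, a virus with a hepatocyte promoter, by tail vein 6 to 7 weeks earlier. The study's methods give a C57BL/6J background for all of the mouse strains, and the age of the mice is not given in the sources used here. Liver RNA was taken from whole tissue, so cells other than hepatocytes, which the promoter leaves intact, also contributed.

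The lamina is a meshwork of A-type lamins (from *Lmna*) and B-type lamins (from *Lmnb1* and *Lmnb2*) that lines the inner nuclear membrane and anchors heterochromatin. LBR binds B-type lamins and heterochromatin, and also acts as a sterol reductase, while emerin and the LAP2 proteins of *Tmpo* carry a LEM domain that binds the chromatin protein BAF. SUN proteins in the inner membrane and nesprins in the outer membrane join into the LINC complex, which couples the lamina to the cytoskeleton. A lower level of lamin B1 is widely used as a marker of senescent cells.

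Libraries held 16146579 to 20177401 reads in genes in iMEFs and 15364450 to 18015991 in livers. *Terf2* fell from 38.3 ± 0.775 to 0.250 ± 0.0482 CPM (reads of a gene per 1000000 reads) in iMEFs (SD, n = 3 each), with 13 reads left over the 3 senescent libraries, and from 12.6 ± 1.35 to 3.82 ± 1.12 CPM in livers (SD, n = 4 each). *Cdkn1a*, which encodes the cell cycle inhibitor p21, rose by 2.15 and 2.44 on the log2 scale (adjusted p = 0.0293 in livers by edgeR's quasi-likelihood test). Of the fibroblast markers, 5 of 6 fell in senescent iMEFs at an adjusted p below 0.05, as did 21.2% of all tested genes. The other, *Vim*, was at 0.20 on the log2 scale (adjusted p = 0.136 by edgeR's quasi-likelihood test). The summed level of the 6 markers moved from between 12273 and 13253 CPM to between 7467 and 8876 CPM. The 5 hepatocyte markers summed to between 0 and 0.0505 CPM in control iMEFs and were listed at 0 in senescent iMEFs, against 71413 to 101090 CPM over the livers. Senescent iMEF replicate 3 stood apart from the other 2 senescent libraries, with chi-square values of 27.1 and 32.8 per degree of freedom against 4.97 between those 2. Levels below are CPM scaled by edgeR's TMM factors within each tissue, and fold changes are log2 of senescent over control. A gene was called at a Benjamini-Hochberg adjusted p below 0.05 in edgeR's quasi-likelihood test. The standard error (SE) was worked back from the log2 fold change and the F statistic of that test, and the 95% intervals were built from it.

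In senescent iMEFs, *Lmnb1* and the LINC complex nesprins *Syne1* and *Syne2* fell, and *Lbr* rose. *Emd* fell by less. In all, 5 of the 10 genes were called, 1 higher and 4 lower, while 39.8% of the 13561 genes tested were called, so the share of called genes was near that of all genes. The median log2 fold change of the 10 genes was -0.06, and over all tested genes it was 0.0028. Added up over the 10 genes, control iMEFs reached 2003 ± 56.7 CPM and senescent iMEFs 1956 ± 49.1 CPM (SD, n = 3 each), and the ranges overlapped.

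**Figure D1:**
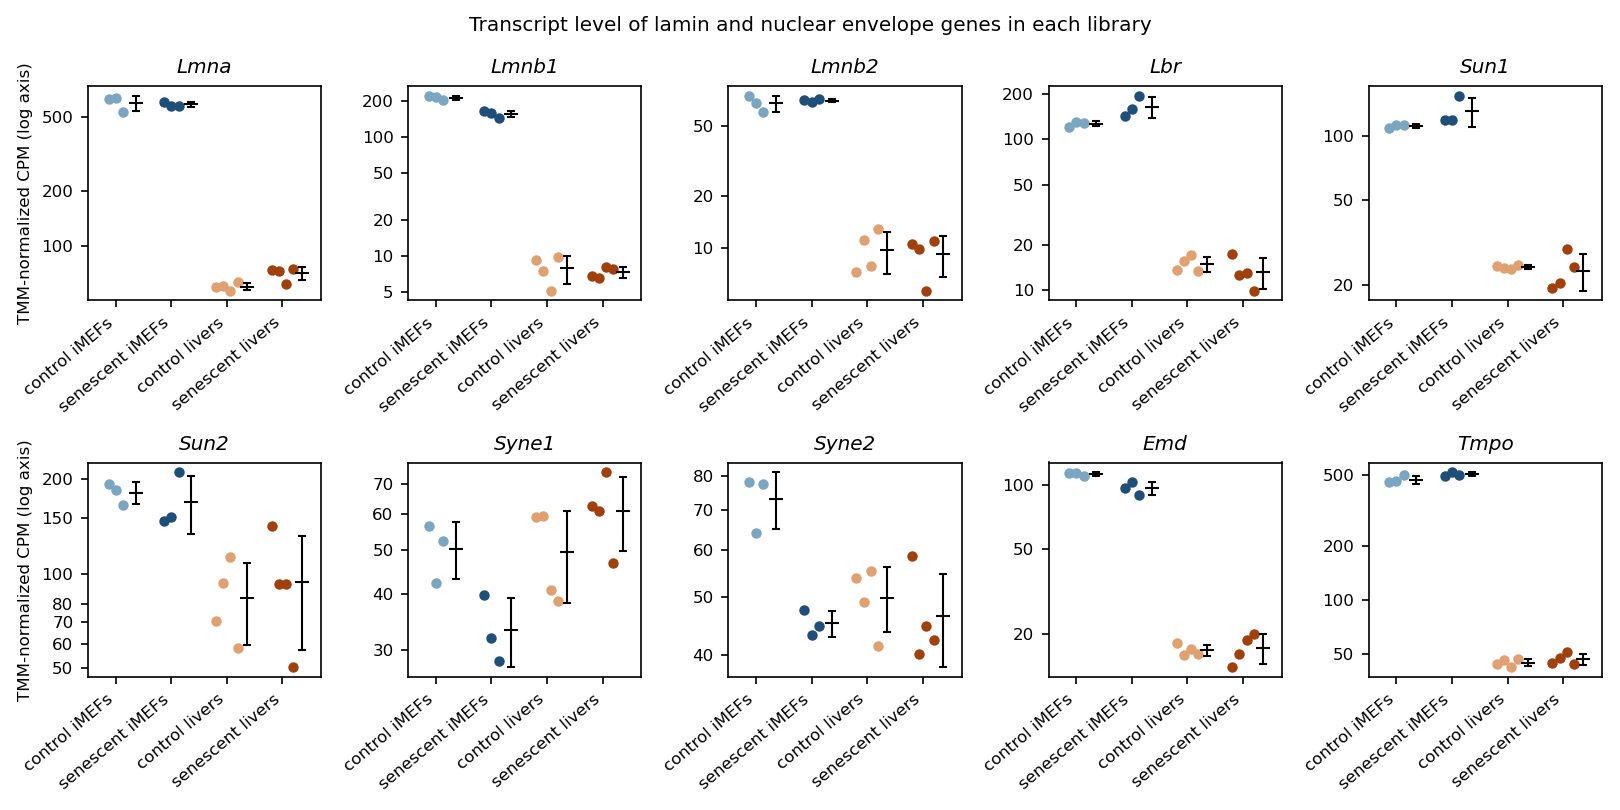
TMM-normalized CPM (log axis, scaled within each tissue) of the 10 genes in each of the 14 libraries. Points are libraries in order of replicate number, and the bar beside them is the mean ± SD (n = 3 for iMEFs, n = 4 for livers). In iMEFs the control and senescent points of *Lmnb1*, *Lbr*, *Sun1*, *Syne1*, *Syne2* and *Emd* do not overlap, and in livers the points of all 10 genes overlap. Of all tested genes, 50.6% did not overlap in iMEFs and 4.51% in livers.

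Of the lamins, only *Lmnb1* was called in iMEFs. *Lmnb1* (ENSMUSG00000024590, chromosome 18 from 56707813 to 56753424 in GRCm38, plus strand) had 219, 215 and 204 CPM in control replicates 1, 2 and 3, and 164, 159 and 145 CPM in senescent replicates 1, 2 and 3. Each senescent library was below each control library. The log2 fold change was -0.45 (SE 0.08, adjusted p = 7.43e-04), a change of -26.7% with a 95% confidence interval of -34.9% to -17.5%. *Lmna* (ENSMUSG00000028063, chromosome 3 from 88480147 to 88509956, minus strand), whose product is spliced into lamins A and C, had 625, 636 and 532 CPM in controls and 607, 579 and 575 CPM in the senescent libraries. The groups overlapped, with control replicate 3 the lowest of all, and the log2 fold change was -0.03 (95% interval -0.23 to 0.17, adjusted p = 0.848). *Lmnb2* (ENSMUSG00000062075, chromosome 10 from 80901203 to 80918245, minus strand) had 74.1, 67.8 and 60.1 CPM in controls and 69.9, 68.5 and 71.0 CPM in the senescent libraries. Its senescent libraries all lay inside the range of the controls, at a log2 fold change of 0.05 (95% interval -0.15 to 0.25, adjusted p = 0.673).

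The make-up of the lamin transcripts moved with *Lmnb1*. Reads per kilobase of exon were used to set the lamins side by side within a library. The exon length pools all annotated transcripts of a gene, 7 for *Lmna*, 2 for *Lmnb1* and 4 for *Lmnb2*. The shares therefore depend on which transcripts the cells make, which gene counts do not show. *Lmnb1* made up 37.9 ± 1.46% of the 3 lamins in control iMEFs and 31.1 ± 1.06% in senescent iMEFs (SD, n = 3 each). *Lmna* made up 53.8 ± 1.40% and 59.3 ± 0.665%, and *Lmnb2* 8.26 ± 0.394% and 9.62 ± 0.434%. The ratio of *Lmna* to *Lmnb1* was 1.45, 1.50 and 1.32 in control and 1.87, 1.85 and 2.01 in senescent iMEFs. The groups did not overlap, and the means differed by 0.43 on the log2 scale. This ratio is given as a description, with no test.

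**Figure D2:**
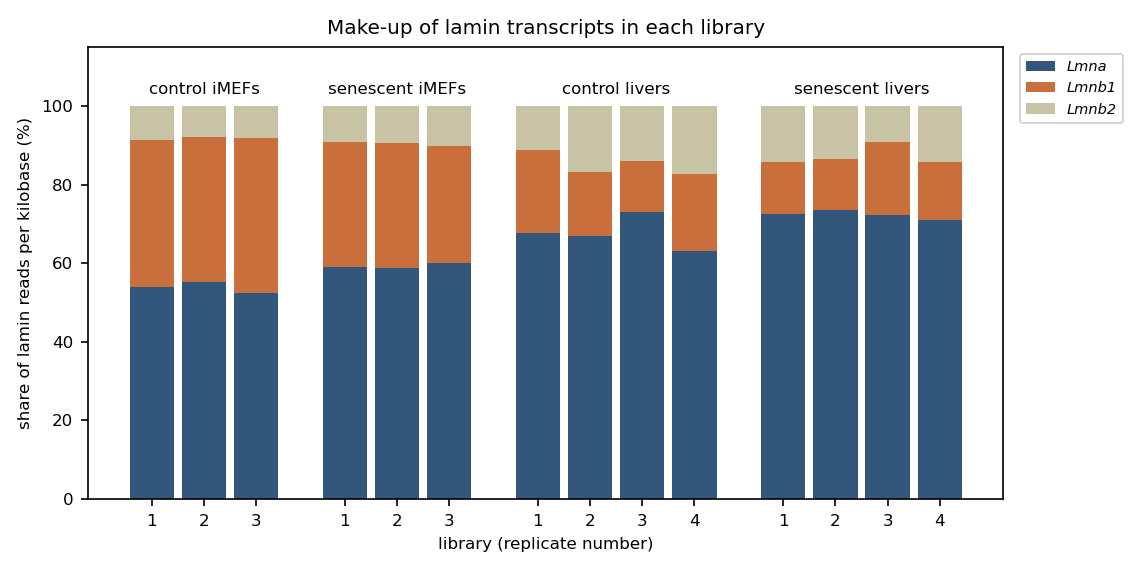
Share of *Lmna*, *Lmnb1* and *Lmnb2* in the lamin reads per kilobase of exon (%) in each of the 14 libraries, stacked to 100%. The *Lmnb1* share is 36.8% to 39.6% in control iMEFs and 29.8% to 31.8% in senescent iMEFs, and 13.0% to 21.1% and 12.9% to 18.6% in control and senescent livers, which overlap.

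The inner membrane proteins went in different directions in iMEFs. *Lbr* (ENSMUSG00000004880, chromosome 1 from 181815335 to 181843046, minus strand) had 121, 129 and 128 CPM in controls and 141, 158 and 193 CPM in the senescent libraries. Every senescent library was above every control library, with replicate 3 the highest, and the log2 fold change was 0.38 (SE 0.10, adjusted p = 0.0121). Without senescent replicate 3 the log2 fold change was 0.26 (adjusted p = 0.0103), and without control replicate 1 the call was lost (adjusted p = 0.0573). *Emd* (ENSMUSG00000001964, chromosome X from 74254687 to 74261548, plus strand), which encodes emerin, had 114, 113 and 110 CPM in controls and 96.6, 104 and 89.7 CPM in the senescent libraries. The groups did not overlap, but the decrease was small, at a log2 fold change of -0.22 (SE 0.08, adjusted p = 0.0424). The call for *Emd* was lost in 9 of 11 alternative fits, among them DESeq2 (adjusted p = 0.0607) and leaving out any 1 library except senescent replicate 2 (adjusted p = 0.0557 to 0.134), without which it was kept (adjusted p = 0.0254). *Tmpo* (ENSMUSG00000019961, chromosome 10 from 91147571 to 91181315, minus strand) had 456, 461 and 498 CPM in controls and 494, 519 and 502 CPM in the senescent libraries. These groups overlapped, and the log2 fold change was 0.10 (95% interval -0.08 to 0.27, adjusted p = 0.362). The exons of *Emd* share 13.6% of their bases with *Gm14686*, a pseudogene on the same strand, and those of *Lbr* share 9.24% with *Dnah14* on the other strand. The sources used here do not say how shared bases were counted, so the counts of these genes are less certain.

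Neither SUN gene was called in iMEFs. *Sun1* (ENSMUSG00000036817, chromosome 5 from 139200637 to 139249840, plus strand) had 109, 113 and 112 CPM in controls and 118, 119 and 154 CPM in the senescent libraries. These values did not overlap, as was true of 6 of the 10 genes and of 50.6% of all tested genes, and the log2 fold change was 0.23 (SE 0.10, adjusted p = 0.0932). *Sun2* (ENSMUSG00000042524, chromosome 15 from 79724070 to 79742536, minus strand) had 193, 184 and 165 CPM in controls and 146, 151 and 210 CPM in the senescent libraries. Replicate 3 was the highest and replicates 1 and 2 the lowest of the 6 libraries, and the log2 fold change was -0.10 (SE 0.12, adjusted p = 0.566). Without senescent replicate 3, *Sun2* was called lower, at -0.27 (adjusted p = 0.00879), and *Sun1* was at 0.10 (adjusted p = 0.273). Senescent replicate 3 was thus the highest iMEF library for *Lbr*, *Sun1* and *Sun2*. The ratio of *Sun2* to *Sun1* per kilobase was lower in each senescent library, at 1.74 to 1.91, than in the controls, at 2.07 to 2.49. It is a description and was not tested.

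The nesprins gave the largest decreases of the 10 genes in iMEFs. *Syne2* (ENSMUSG00000063450, chromosome 12 from 75818134 to 76110926, plus strand), which encodes nesprin-2, had 78.1, 64.0 and 77.5 CPM in controls and 47.6, 43.1 and 44.7 CPM in the senescent libraries. The groups were far apart, with a log2 fold change of -0.70 (SE 0.10, adjusted p = 1.44e-04), or -38.3% (95% interval -46.8% to -28.5%). *Syne1* (ENSMUSG00000096054, chromosome 10 from 5020917 to 5551482, minus strand), which encodes nesprin-1, had 56.4, 42.2 and 52.5 CPM in controls and 39.7, 31.9 and 28.3 CPM in the senescent libraries. All senescent libraries were below all controls, though senescent replicate 1 came near control replicate 2, and the log2 fold change was -0.59 (SE 0.13, adjusted p = 0.00393), or -33.8% (95% interval -45.9% to -18.9%). The calls for *Lmnb1*, *Syne1* and *Syne2* were kept in all 11 alternative fits at a threshold of 0.05. Both nesprin genes make long and short isoforms, with exon unions of 40491 and 26726 bases for *Syne1* and *Syne2*, and gene counts do not separate them. The ratio of *Syne2* to *Syne1* per kilobase was 2.21 ± 0.102 in control and 2.08 ± 0.288 in senescent iMEFs (SD, n = 3 each), and these ranges overlapped.

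**Figure D3:**
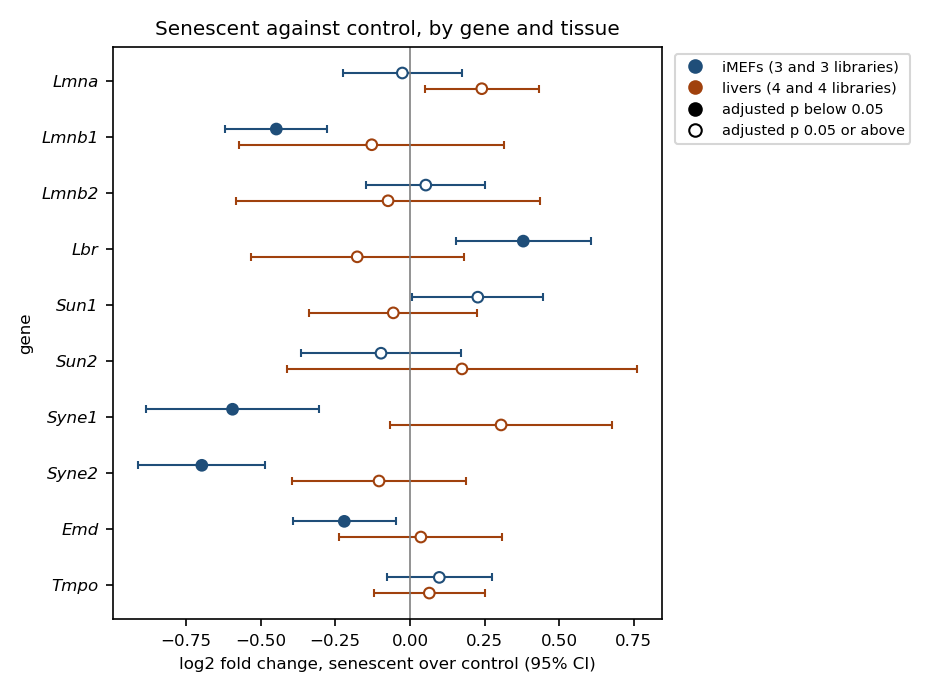
Log2 fold change of senescent over control for the 10 genes in iMEFs (3 and 3 libraries) and livers (4 and 4 libraries). The 95% confidence intervals were worked back from the F statistic of edgeR's quasi-likelihood test. Filled points have an adjusted p below 0.05: *Lmnb1*, *Syne1*, *Syne2* and *Emd* lower and *Lbr* higher in iMEFs, and none in livers.

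The promoters of the genes other than *Lmnb1* that were called in iMEFs are shown because the direction of change differed between them. Each sequence holds the 250 bases before a RefSeq transcription start in GRCm38.p6, read 5′ to 3′ on the strand of the gene. Capitals mark CCAAT (bound by NF-Y), TTTGAA (the cell cycle homology region) and GGGCGG (the GC box), on either strand, so that CCAAT may also appear as ATTGG, the second motif as TTCAAA and the GC box as CCGCCC. The *Syne1* sequence belongs to the start farthest upstream of 3 in RefSeq. The windows are chr1:181842402-181842651 (minus strand) for *Lbr*, chr12:75818068-75818317 (plus strand) for *Syne2*, chr10:5550693-5550942 (minus strand) for *Syne1* and chrX:74254437-74254686 (plus strand) for *Emd*.
Lbr: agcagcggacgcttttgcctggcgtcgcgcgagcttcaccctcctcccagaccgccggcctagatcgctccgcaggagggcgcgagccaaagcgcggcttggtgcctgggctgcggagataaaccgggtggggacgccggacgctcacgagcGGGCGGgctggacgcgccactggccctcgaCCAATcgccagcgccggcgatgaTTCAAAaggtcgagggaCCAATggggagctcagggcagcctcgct
Syne2: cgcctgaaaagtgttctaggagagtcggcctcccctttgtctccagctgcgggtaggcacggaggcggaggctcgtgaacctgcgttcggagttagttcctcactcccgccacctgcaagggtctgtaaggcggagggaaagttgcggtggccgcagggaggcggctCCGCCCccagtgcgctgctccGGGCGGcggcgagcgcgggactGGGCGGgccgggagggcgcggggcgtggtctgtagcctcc
Syne1: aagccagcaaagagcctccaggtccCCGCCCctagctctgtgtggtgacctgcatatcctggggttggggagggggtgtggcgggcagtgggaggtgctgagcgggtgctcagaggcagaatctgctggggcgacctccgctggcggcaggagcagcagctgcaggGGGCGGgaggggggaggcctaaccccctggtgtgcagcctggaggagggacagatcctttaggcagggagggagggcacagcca
Emd: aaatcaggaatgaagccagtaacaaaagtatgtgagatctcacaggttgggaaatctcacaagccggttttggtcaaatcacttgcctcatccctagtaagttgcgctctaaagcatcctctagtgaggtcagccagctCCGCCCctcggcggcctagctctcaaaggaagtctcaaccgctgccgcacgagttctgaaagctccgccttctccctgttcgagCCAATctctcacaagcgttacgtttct

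*Lbr*, the one of these genes that rose, held CCAAT at 68 and 28 bases before the start, with TTTGAA on the other strand between them at 45 bases before it, as well as GGGCGG. In the windows shown, *Syne1* and *Syne2*, which fell, held GGGCGG at 2 and 3 places and neither CCAAT nor TTTGAA. The other *Syne1* windows held none of these motifs. *Emd* held CCAAT at 27 bases before the start and GGGCGG once. RefSeq windows of 300 bases (250 before to 50 after a start) were matched for 9 of the 10 genes, 15 windows in all. Among all 32851 windows of that table, 37.4% held CCAAT, 17.9% TTTGAA and 35.7% GGGCGG. The E2F-type motifs TTTCGCGC, TTTGGCGC and TTTCCCGC, in 0.323%, 0.514% and 1.07% of all windows, were also searched on both strands, and TTTCCCGC was found in 1 window of *Tmpo*. *Sun2*, which was not called, held the same motifs as *Lbr*, with CCAAT at 85 and 41 bases before the start and TTTGAA on the other strand at 95. At least 1 window each of *Lmna*, *Sun1* and *Tmpo*, also not called, held CCAAT too. A link between motifs and the direction of change was not tested. In the window of *Sun2*, GGGCGG at 67 and at 62 bases before the start shared 1 base. These matches describe the letters of the windows only.

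In livers, none of the 10 genes was called. edgeR, DESeq2 and limma-voom each gave 0 of 10, against 0.343% of the 14270 genes tested (edgeR), and 1 gene, *Lmna*, had an unadjusted p below 0.05, against 7.54% of all genes. The control and senescent values overlapped for each of the 10, while they did not overlap for 4.51% of all genes. In whole liver, fewer cells of a type and less RNA per cell cannot be told apart.

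*Lmna* had 59.5, 60.8, 57.2 and 63.5 CPM in control livers 1 to 4 and 74.4, 73.6, 62.1 and 74.8 CPM in senescent livers 1 to 4. All senescent livers but replicate 3 were above all controls, and the log2 fold change was 0.24 (SE 0.09, unadjusted p = 0.0175, adjusted p = 0.539). *Lmnb1* had 9.42, 7.56, 5.17 and 9.93 CPM in control and 6.88, 6.54, 8.09 and 7.89 CPM in senescent livers, from 562 and 470 reads in all. Its senescent values lay inside the spread of the controls, whose replicate 3 was the lowest, and the log2 fold change was -0.13 (SE 0.20, adjusted p = 0.928). The 95% interval, -0.57 to 0.32, includes the value seen in iMEFs. *Lmnb2* was at 7.30 to 12.9 CPM in control and 5.73 to 11.0 CPM in senescent livers, with a log2 fold change of -0.07 (95% interval -0.58 to 0.44). The ratio of *Lmna* to *Lmnb1* per kilobase was 4.04 ± 1.12 in control and 4.97 ± 0.814 in senescent livers (SD, n = 4 each). These ranges overlapped, at 3.21 to 5.61 and 3.90 to 5.70, and the means differed by 0.32 on the log2 scale.

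The 5 stellate cell markers summed to 263 to 309 CPM in control and 315 to 364 CPM in senescent livers, and 0 of the 5 was called. These sums did not overlap, and neither did the values of 4.51% of all single genes tested in livers. The log2 fold changes of the 5 markers ran from -0.25 to 0.39. The 6 macrophage markers summed to 150 to 328 and 264 to 344 CPM, and the 5 endothelial markers to 201 to 232 and 229 to 272 CPM, both overlapping and with 0 called. The 5 hepatocyte markers summed to 71413 to 84984 and 80200 to 101090 CPM, also with 0 called. The 5 cholangiocyte markers summed to 56.6 to 112.5 and 79.6 to 135 CPM. For the 6 lymphocyte markers the sums were 5.86 to 11.9 and 6.50 to 9.91 CPM. For the 6 fibroblast markers they were 1967 to 2313 and 1701 to 2296 CPM. These sums overlapped too, with 0 called. Of all these markers, only 1 fibroblast marker was at 0 in a group, in senescent livers. The part of these cells in the *Lmna* values was not tested.

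For the other genes, too, control and senescent livers overlapped. *Sun2* had the widest spread, at 70.6, 93.2, 113 and 57.9 CPM in control and 141, 92.9, 92.6 and 50.5 CPM in senescent livers. The lowest and the highest value were both from senescent livers, and the 95% interval of the log2 fold change ran from -0.41 to 0.76. *Syne1* had 59.2, 59.5, 40.9 and 38.5 CPM in control and 62.6, 61.1, 74.4 and 46.7 CPM in senescent livers. Of the senescent livers, 3 were above all controls, and the log2 fold change was 0.31 (SE 0.17, adjusted p = 0.725). *Syne2* was at 41.3 to 55.3 and 40.1 to 58.6 CPM, with a log2 fold change of -0.10 (95% interval -0.39 to 0.19). *Lbr* was at 13.4 to 17.0 and 9.91 to 17.3 CPM, with a log2 fold change of -0.18 (95% interval -0.53 to 0.18). *Sun1*, *Emd* and *Tmpo* had log2 fold changes of -0.06, 0.04 and 0.06.

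A test of the difference between the tissues (senescent over control in livers, less the same in iMEFs) called 1 of the 10 genes, against 10.3% of 16503 genes (5.91% higher and 4.4% lower in livers than in iMEFs). This gene was *Syne1*, with a difference of 0.89 on the log2 scale (SE 0.26, 95% interval 0.35 to 1.44, adjusted p = 0.0345 by edgeR's quasi-likelihood test). It fell in iMEFs and had a value above 0 in livers. The call was lost in 8 of the 14 fits that left out 1 library (iMEF control 1 or 3, iMEF senescent 2 or 3, liver control 3 or 4, liver senescent 2 or 3), with adjusted p up to 0.0960. *Syne2* differed by 0.59 (SE 0.19, adjusted p = 0.0532) and was not called. With DESeq2 it was called (adjusted p = 0.0216). With limma-voom it was not, nor in 10 of the 14 edgeR fits that left out 1 library (adjusted p up to 0.128). *Lbr* differed by -0.56 (SE 0.21, adjusted p = 0.0983) and *Lmnb1* by 0.31 (SE 0.21, 95% interval -0.14 to 0.77, adjusted p = 0.407). For *Lmnb1*, the change in iMEFs is therefore not shown to differ from that in livers.

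Per kilobase of exon, the order of the genes differed between the tissues. In control iMEFs it ran from *Lmna* (102 ± 9.80 CPM per kb) and *Lmnb1* (71.8 ± 2.72) through *Emd* (44.7 ± 0.875), *Tmpo* (42.9 ± 2.09), *Sun2* (33.3 ± 2.65), *Lbr* (26.5 ± 0.967), *Lmnb2* (15.7 ± 1.64) and *Sun1* (14.6 ± 0.261) to *Syne2* (2.74 ± 0.298) and *Syne1* (1.24 ± 0.181; SD, n = 3). The ranges of *Emd* and *Tmpo* overlapped, as did those of *Lmnb2* and *Sun1*, and the other neighbours were apart. In senescent iMEFs *Lmna* and *Lmnb1* were still first and second, at 101 ± 3.02 and 52.7 ± 3.40 CPM per kb, while *Tmpo* stood above *Emd* and *Lbr* above *Sun2*. The range of *Lbr* overlapped those of *Emd* and *Sun2* there, and *Sun1* stood above *Lmnb2* with overlap. In control livers *Sun2* came first (15.4 ± 4.47 CPM per kb), overlapping *Lmna* (10.3 ± 0.455), then *Emd* (6.71 ± 0.380) and *Tmpo* (4.05 ± 0.187). *Lmnb1* was seventh, at 2.71 ± 0.728 CPM per kb, and from *Sun1* (3.19 ± 0.0660) through *Lbr*, *Lmnb1* and *Lmnb2* to *Syne2* (1.87 ± 0.237) each gene overlapped the next. *Syne1* was last at 1.22 ± 0.281 CPM per kb (SD, n = 4). The order by mean was the same in senescent livers. The tissues were scaled apart and not tested against each other. The exon unions of the nesprins hold several isoforms, which lowers their level per kilobase. The unions of the other genes also pool transcripts, from 2 for *Lmnb1* to 20 for *Sun1*, so the order depends on these lengths.

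Of a list of 22 other envelope genes, 19 were tested in iMEFs, of which 2 rose and 3 fell, where 18.6% and 21.2% of all genes did, and the list's median log2 fold change was 0.07. The smaller nesprins *Syne3* and *Syne4*, which link the nucleus to intermediate filaments and microtubule motors, had log2 fold changes of -0.44 (SE 0.09, adjusted p = 0.00191) and -0.74 (SE 0.22, adjusted p = 0.0187), so that all 4 nesprin genes were lower in senescent iMEFs. The call for *Syne4* was lost without control replicate 1, control replicate 2 or senescent replicate 2 (adjusted p up to 0.0805). *Nemp1*, an inner membrane protein, rose by 0.54 (SE 0.11, adjusted p = 0.00198), and *Ankle1*, a LEM-domain endonuclease, by 0.91 (SE 0.19, adjusted p = 0.00233). Of 5 enzymes that process the lamin tail, *Rce1*, the CAAX protease, fell by 0.40 on the log2 scale (SE 0.12, adjusted p = 0.0201). That call was lost without control replicate 1 or 2 or senescent replicate 1 or 2 (adjusted p up to 0.0944).

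In livers, 1 of 19 tested genes of the envelope list was called, against 0.343% of all tested genes. *Tmem43*, an inner membrane protein that binds emerin and lamins, had 13.8, 12.2, 9.12 and 10.6 CPM in control and 18.6, 23.1, 24.8 and 22.4 CPM in senescent livers. All senescent livers were above all controls, and the log2 fold change was 0.96 (SE 0.14, adjusted p = 0.0111). Without senescent replicate 2 the adjusted p was 0.0535 at a log2 fold change of 0.94. In iMEFs *Tmem43* had 112 ± 7.87 and 117 ± 27.6 CPM (SD, n = 3 each) and a log2 fold change of 0.07 (adjusted p = 0.702). The difference between the tissues was 0.89 (SE 0.21, adjusted p = 0.0129) and was called in all 14 fits that left out 1 library.

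Among nuclear pore genes, more rose than fell in senescent iMEFs. Of 29 tested genes of a list of 30, 14 rose and 1 fell, against 18.6% and 21.2% of all genes, and the median log2 fold change was 0.19, against 0.0028 over all genes. The list was chosen with earlier results of these data known, so these shares are a description, with no test. *Ahctf1*, which encodes the pore assembly factor ELYS, rose from 139 ± 11.1 to 207 ± 10.7 CPM (log2 fold change 0.57, SE 0.08, adjusted p = 1.73e-04). *Nup205* and *Nup155*, of the inner ring, rose by 0.48 and 0.39, and *Nup153*, of the nuclear basket, by 0.46. *Sec13*, which the pore shares with COPII vesicle coats, fell by 0.39. In livers 0 of 29 were called by edgeR, against 0.343% of all genes, and the median was -0.06. An unadjusted p below 0.05 was seen for 2 of 29, against 7.54% of all genes. The difference between the tissues was called for 4 of 29, all lower in livers (4.4% of all genes were): *Ahctf1* (-0.83), *Nup205* (-0.62), *Nup155* (-0.53) and *Nup210* (-1.23), the last of which is named here after its value was seen. *Nup155* kept this call in all 14 fits that left out 1 library, while *Ahctf1* lost it without iMEF control replicate 1 or 2, *Nup205* without those or senescent replicate 1 or 2, and *Nup210* without control replicate 2 or senescent replicate 3 (adjusted p up to 0.0539, 0.0754 and 0.0576). With limma-voom *Nup210* was not called either (adjusted p = 0.0781), and it rested on 42 and 96 reads in control and senescent iMEFs.

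Of 10 heterochromatin proteins that meet the lamina, 3 fell and 0 rose in senescent iMEFs, against 21.2% and 18.6% of all genes. *Cbx5*, which encodes HP1α, fell from 495 ± 23.3 to 375 ± 28.1 CPM (log2 fold change -0.40, SE 0.09, adjusted p = 0.00292), *Hdac3* by 0.26 and *Cbx1*, which encodes HP1β, by 0.26. The calls for *Hdac3* and *Cbx1* were lost without control replicate 1 (highest adjusted p 0.0525 and 0.102 on leaving out 1 library), and that for *Cbx1* also without control replicate 2 or senescent replicate 1. Of 20 proliferation genes, 4 rose and 1 fell in iMEFs, against 18.6% and 21.2% of all genes, with a median of 0.05. *Rrm2*, a ribonucleotide reductase subunit, rose by 0.66 (adjusted p = 2.97e-05), *Birc5* by 0.36 and *Bub1* by 0.35, and *Mcm5*, a replicative helicase subunit, fell by 0.39. The call for *Bub1* was lost without control replicate 1 (adjusted p = 0.0580). The proliferation list summed to 4377 to 4556 CPM in control and 4357 to 4766 CPM in senescent iMEFs, which overlapped. In livers edgeR called 0 of 10 heterochromatin genes and 0 of 19 tested proliferation genes, against 0.343% of all genes. At an unadjusted p below 0.05 there were 1 and 0, against 7.54% of all genes.

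**Figure D4:**
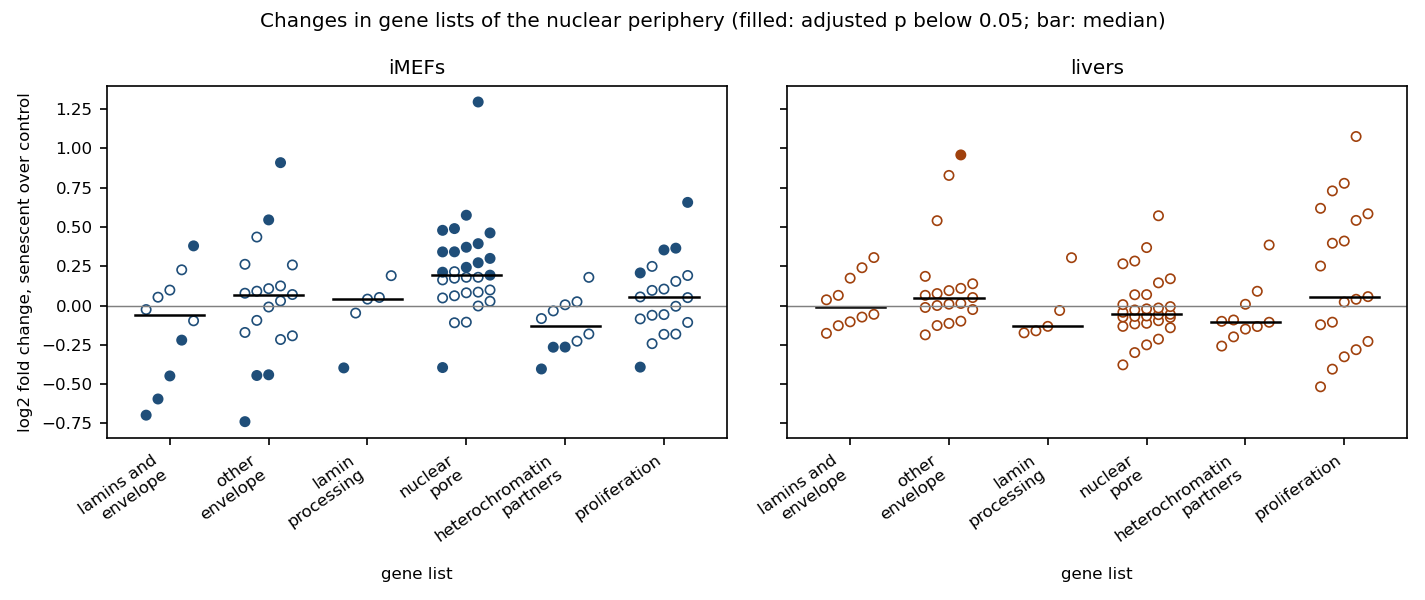
Log2 fold change of senescent over control for each tested gene of the 10 lamin and envelope genes and of 5 related lists, in iMEFs (left) and livers (right). Filled points have an adjusted p below 0.05 by edgeR's quasi-likelihood test and bars are list medians. In iMEFs the nuclear pore list has a median of 0.19 with 14 genes called higher, and in livers *Tmem43* of the envelope list is the single filled point.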

How the data were processed

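RNA was sequenced from biological replicates according to the study's methods, 3 per group for iMEFs and 4 for livers. Libraries were prepared, sequenced and aligned at Novogene. The authors deposited raw counts of reads per gene, 1 table per tissue, and the submitters' processing notes name STAR, featureCounts and the build mm10, without versions. The sources used here give neither the strand setting nor the annotation release. Deposited normalized tables were not used. The tables were joined by Ensembl ID, and positions and exon lengths come from GENCODE M21 (GRCm38).

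Each tissue was fitted over all genes with edgeR 4.0.16 in R 4.3.3 (filterByExpr, TMM, glmQLFit, glmQLFTest, Benjamini-Hochberg, threshold 0.05). The difference between tissues came from 1 fit over 14 libraries. The steps were tested on simulated data. The pass mark was set on changes larger than any reported here for the lamin and envelope genes, so it does not speak for smaller changes. Alternatives were RLE factors, DESeq2 1.42.0, limma-voom 3.58.1, no filter, a block for the replicate number, leaving out each library and a threshold of 0.01. Replicates differed by more than sampling noise (chi-square 4.25 to 39.8 per degree of freedom).

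The genes and lists were chosen with earlier results of these data known. Named from each list were, per tissue, up to 4 called genes of smallest p and up to 2 called against the list's main direction. Of the nuclear pore list, 2 genes were matched by an older symbol. Promoters are from RefSeq (GRCm38.p6).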

Additional observations from a re-analysis of the deposited data

Results flagged for a closer look

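In senescent livers, replicate 3 lay apart from the other 3 for 2 lamins by Dixon's test on log2 CPM. *Lmna* was at 62.1 CPM there, against 73.6 to 74.8 CPM in the others, and *Lmnb2* was at 5.73 CPM, against 9.98 to 11.0 CPM. Chance gives such a gap in about 1 in 20 groups, and 20 groups of 4 were examined. *Syne1* had a log2 fold change that differed between the tissues by 0.89 (edgeR's quasi-likelihood test, adjusted p = 0.0345), at -0.59 in iMEFs and 0.31 in livers.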

How the results depend on the processing

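Of the 10 genes, 5 were called in iMEFs. This count was 3 at a threshold of 0.01 and 3 to 5 on leaving out 1 library, with the 3 seen without control replicate 1. The count in livers was 0 in every alternative run. For the difference between tissues it was 1, and it became 2 with RLE factors, 2 with DESeq2, 3 without a filter on low counts, 0 at a threshold of 0.01, 2 on genes tested in each tissue (an alternative chosen after seeing the data), and 0 to 2 on leaving out 1 library. The cause was not tested. With the replicate number as a block, 4 genes were called in iMEFs, 0 in livers and 2 for the difference. Under the block *Emd* and *Syne4* in iMEFs and *Tmem43* in livers were no longer called (adjusted p = 0.0586, 0.0564 and 0.0518 by edgeR), *Syne2* was called for the difference (0.0349), and no other call of a named gene changed. Same-numbered libraries showed little shared deviation (correlations of -0.19 to 0.011 in iMEFs and -0.10 to 0.28 in livers). In iMEFs 0 of 6 and in livers 2 of 8 libraries correlated best with their own number. Pairing by number was thus not seen, but with so few libraries this check cannot exclude it. The log2 difference of the *Lmna* to *Lmnb1* ratio stayed above 0 on leaving out 1 library, at 0.38 to 0.47 in iMEFs and 0.23 to 0.50 in livers.

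Some log2 fold changes that were not called had either sign on leaving out 1 library. In iMEFs *Lmna* ran from -0.11 to 0.016, *Lmnb2* from -0.027 to 0.12 and *Sun2* from -0.27 (called) to 0.0027. In livers *Lmnb2* ran from -0.19 to 0.10, *Sun1* from -0.18 to 0.027, *Sun2* from -0.086 to 0.38 and *Emd* from -0.041 to 0.13. The difference for *Lmnb2* ran from -0.25 to 0.040. *Lmnb1* had the lowest counts of the 10 genes in livers, at 562 and 470 reads over the control and senescent libraries.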
